A study of Homo sapiens with 15 samples.

Results

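The genes described here are 9 genes of MHC class I antigen presentation, chosen by symbol: HLA-B, HLA-C, HLA-E, HLA-F, B2M, TAP1, TAP2, PSMB8 and PSMB9. They are 9 of the 26485 gene symbols in the count table, and all 9 were among the 17243 genes that passed the filter on low counts and were tested. RNA was sequenced from 2 human acute myeloid leukemia cell lines, ML1 and U937, in a study that looked for changes in transcription factors that could act on TNF. All groups shared 24 h of treatment in the presence of 5 µM Q-VD-OPh, an inhibitor of caspases, so no group is free of it. ML1 cells received diluent or 10 nM prexasertib, an inhibitor of the checkpoint kinase CHK1. U937 cells received diluent, 10 nM prexasertib, or 10 nM prexasertib together with 350 nM LSN622666, a compound given by its code name only. Each of the 5 groups held 3 libraries, LSN622666 was not given alone, and ML1 did not receive it. The labels do not say whether the libraries of a group came from separate cultures, so p-values measure the spread between these libraries, which may be technical.

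MHC class I molecules carry short peptides from proteins made inside the cell to its surface, where CD8 T cells read them. Proteasomes cut the proteins, and their immune form holds the catalytic subunits encoded by PSMB8 and PSMB9. TAP1 and TAP2 form the pump that moves the peptides into the endoplasmic reticulum, where they are loaded onto a heavy chain (HLA-B, HLA-C, HLA-E or HLA-F) paired with the light chain beta 2 microglobulin, encoded by B2M. HLA-E presents mainly leader peptides of other class I chains to NK cell receptors. Interferons raise the transcription of the whole group, through STAT and IRF factors and through the class I transactivator NLRC5, and NF-kappa B acts on several of its promoters.

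In the GENCODE annotation of GRCh38, the main transcripts of 8 of the 9 genes lie on chromosome 6 and that of B2M lies on chromosome 15, from 44711487 to 44718877 on the plus strand, in 4 exons. HLA-F starts the row at 29723279 to 29727296 (plus strand, 7 exons), and HLA-E follows at 30489467 to 30494205 (plus strand, 8 exons). HLA-C lies at 31268749 to 31272086 and HLA-B at 31353872 to 31357187, both on the minus strand with 8 exons. The other genes form a block of 37753 bases. TAP2 at 32821833 to 32838727 (12 exons), PSMB8 at 32840717 to 32844047 (6 exons) and TAP1 at 32845209 to 32853978 (11 exons) are on the minus strand, and PSMB9 at 32854161 to 32859585 (6 exons) is on the plus strand. TAP1 and PSMB9 point away from each other, and their starts are 183 bases apart.

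The promoter sequences are shown as a description. Several of them hold letters of the interferon response or kappa B type, and any part of these letters in the changes with prexasertib was not tested. Each is the 250 bases before the gene's start in RefSeq (GRCh38.p14), 5′ to 3′ on the gene's strand. For HLA-B, HLA-C, TAP2, B2M and PSMB9 the RefSeq start lies 6 to 31 bases from the start in the annotation above. It lies 155 bases away for HLA-F, so the last 155 bases of that window, with its marked match, fall inside the annotated transcript. For TAP1 it lies 274 bases away, and the whole window falls inside the annotated transcript. Capitals mark matches, on either strand, to an interferon response core (GAAANNGAA or the class I form AAGTGAAAC) or to a kappa B core (GGGATTCCC or GGACTTTCC). Adjacent matches in 1 run of capitals overlap. The windows are HLA-B at chr6:31357180-31357429 (minus strand), HLA-C at chr6:31272093-31272342 (minus strand), HLA-F at chr6:29723184-29723433 (plus strand), B2M at chr15:44711267-44711516 (plus strand), TAP1 at chr6:32853705-32853954 (minus strand), PSMB9 at chr6:32853942-32854191 (plus strand) and TAP2 at chr6:32838740-32838989 (minus strand).
HLA-B: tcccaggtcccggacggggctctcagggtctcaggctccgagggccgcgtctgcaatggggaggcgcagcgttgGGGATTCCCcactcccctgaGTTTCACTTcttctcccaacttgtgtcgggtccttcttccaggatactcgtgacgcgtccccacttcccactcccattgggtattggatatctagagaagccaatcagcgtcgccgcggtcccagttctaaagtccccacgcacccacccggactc
HLA-C: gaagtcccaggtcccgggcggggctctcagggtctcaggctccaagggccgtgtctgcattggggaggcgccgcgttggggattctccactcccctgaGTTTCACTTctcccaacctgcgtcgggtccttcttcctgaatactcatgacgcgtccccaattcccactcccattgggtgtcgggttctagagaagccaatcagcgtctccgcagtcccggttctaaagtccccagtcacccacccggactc
HLA-F: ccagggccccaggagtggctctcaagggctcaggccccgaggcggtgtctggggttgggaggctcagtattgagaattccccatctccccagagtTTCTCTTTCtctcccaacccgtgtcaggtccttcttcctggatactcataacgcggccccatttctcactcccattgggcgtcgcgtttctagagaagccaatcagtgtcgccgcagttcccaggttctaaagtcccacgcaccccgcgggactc
B2M: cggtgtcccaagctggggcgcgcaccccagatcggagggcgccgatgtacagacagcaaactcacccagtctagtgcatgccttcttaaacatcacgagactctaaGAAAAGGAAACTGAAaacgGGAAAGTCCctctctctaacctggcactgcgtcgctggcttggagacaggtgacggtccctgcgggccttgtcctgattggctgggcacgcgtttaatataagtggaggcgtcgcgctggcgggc
TAP1: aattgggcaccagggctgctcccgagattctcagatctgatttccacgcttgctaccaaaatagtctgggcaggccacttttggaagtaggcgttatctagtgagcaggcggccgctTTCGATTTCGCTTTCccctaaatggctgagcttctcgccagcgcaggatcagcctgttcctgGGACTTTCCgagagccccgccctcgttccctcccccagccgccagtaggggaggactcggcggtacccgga
PSMB9: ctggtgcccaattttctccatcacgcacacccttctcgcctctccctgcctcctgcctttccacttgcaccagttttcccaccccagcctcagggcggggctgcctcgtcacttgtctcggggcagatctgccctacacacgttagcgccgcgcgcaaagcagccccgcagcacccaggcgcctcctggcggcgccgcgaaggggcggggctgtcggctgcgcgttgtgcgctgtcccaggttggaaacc
TAP2: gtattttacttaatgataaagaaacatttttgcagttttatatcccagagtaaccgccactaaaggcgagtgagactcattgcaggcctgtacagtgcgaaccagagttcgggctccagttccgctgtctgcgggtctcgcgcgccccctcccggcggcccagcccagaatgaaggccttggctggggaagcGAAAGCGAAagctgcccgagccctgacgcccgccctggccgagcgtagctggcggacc

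The letters GAAANNGAA were found in the first windows of HLA-F, B2M, TAP1 and TAP2, which is 4 of the 8 members with a window, and in 6.88% of all 35116 promoters of that length. AAGTGAAAC was found in HLA-B and HLA-C, against 0.268% of all promoters, and GGGATTCCC in HLA-B alone of the 8, against 0.362%. GGACTTTCC was found in TAP1 and B2M, against 0.333%. In the first windows of PSMB9 and PSMB8 none of these letters were found. For PSMB8 the start behind the first window lies 632 bases from the annotated start. The start behind its second window lies on the annotated start. Of 4 other motifs searched on both strands, TGACG and CCAAT were each found in the first windows of 6 of the 8, against 21.2% and 32.0% of all promoters, and TTCNNNGAA and TGANTCA in the first windows of 0 of the 8, against 6.57% each. TTCNNNGAA was found in second windows, before other RefSeq starts, of PSMB8 and TAP1. That of PSMB8 is the window at the annotated start, and that of TAP1 is for a start 1217 bases from it. The TAP1 and PSMB9 windows share 13 bases. The motifs were picked after the sequences had been seen, and a match describes letters, not a site in use. HLA-E is named only.

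The libraries held between 49011222 and 87301014 counted reads. Of the 8 myeloid markers checked, CD33 was at 88.7 counts per 1000000 scaled reads (CPM) in ML1 and 87.2 CPM in U937 with diluent, whereas MPO was at 948 CPM in ML1 and 2.51 CPM in U937. With diluent the 8 summed to 1979 to 2262 CPM in ML1 and to 865 to 1023 CPM in U937. Of the 5 T cell markers, 4 were in the count table, and CD3D and CD3E were at 0 in every library. CD2 was read in each U937 group and CD3G only in U937 with prexasertib. The 4 summed to 0 in ML1 and to 0.321 to 1.02 CPM in U937. NKG7, a granule gene of NK cells, was at 173 CPM in U937 with diluent, and the 5 NK cell markers summed to 107 to 183 CPM in U937 and to 12.6 to 53.1 CPM in ML1. The 5 B cell markers summed to 6.4 to 27.9 CPM in ML1 and to 20.7 to 36.9 CPM in U937. The part of such markers in the class I values was not tested. Replicate 2 of U937 with prexasertib stood apart from the other libraries of its group. Its summed level of 20 type I interferon response genes was 2443 CPM, against 589 and 598 CPM in replicates 1 and 3, so counts in U937 that rest on it are also given without it. In bulk RNA of this kind, fewer cells making a transcript and less transcript per cell cannot be told apart.

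In ML1, all 9 class I genes were higher with prexasertib than with diluent, from 1.62-fold for PSMB8 to 38.0-fold for HLA-F. HLA-B, the most abundant of the heavy chains measured here, came to 6.76 times its level with diluent, and TAP1, one chain of the peptide pump, to 9.40 times. All 9 passed the test in the higher direction, where 25.3% of all genes tested did, and for all 9 the prexasertib libraries lay above every diluent library, which held for 30% of all genes. The median log2 difference of the 9 was 2.04, against 0.02 over all genes tested. Together the 9 genes held 0.196% to 0.228% of the counted reads of the diluent libraries and 0.825% to 0.925% of those with prexasertib.

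Among the heavy chains of ML1, HLA-B was at 351, 491 and 491 CPM with diluent and at 2475, 3269 and 3274 CPM with prexasertib. Replicate 1 was the lowest in both groups, and the groups were far apart. The log2 difference was 2.76 ± 0.18 (SE; adjusted p = 1.8e-09). HLA-C, the other classical chain here, was at 205, 253 and 235 CPM with diluent and at 715, 1101 and 1038 CPM with prexasertib, again with replicate 1 lowest in each group and no overlap. Its log2 difference was 2.04 ± 0.15 (adjusted p = 6.8e-09). HLA-E was at 224, 274 and 276 CPM with diluent and at 1143, 1182 and 1281 CPM with prexasertib. All 3 treated libraries lay close together, well above the controls, at a log2 difference of 2.22 ± 0.14 (adjusted p = 1.4e-09).

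HLA-F, a chain that is found mostly inside cells and can reach the surface without peptide, was barely read in ML1 with diluent, at 0.509, 0.961 and 1.03 CPM, or 169 counts over the 3 libraries. With prexasertib it was at 29, 29.9 and 36.7 CPM, or 5372 counts. The treated libraries differed little among themselves and none came near the controls. The log2 difference of 5.25 ± 0.26 (adjusted p = 5.1e-11) was the largest of the 9. In the annotation 47.5% of the exon bases of HLA-F lie under other gene models, 15.7% under the antisense gene HLA-F-AS1, and the library kit does not mark strand, so reads of the shared bases cannot be told apart. HLA-F-AS1 itself had mean levels of 6.31 and 5.39 CPM without and with prexasertib (log2 difference -0.23 ± 0.25, adjusted p = 0.48).

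The light chain B2M, with which class I heavy chains fold, was at 728, 823 and 834 CPM in ML1 with diluent and at 2459.9, 2682 and 2541 CPM with prexasertib. The treated libraries spanned a narrow range above all controls, and the log2 difference was 1.69 ± 0.11 (adjusted p = 2.1e-09). The light chain thus rose less than HLA-B: the ratio of HLA-B to B2M, both in CPM per kilobase of transcript, was 0.613 ± 0.0706 (SD, n = 3) with diluent and 1.29 ± 0.162 with prexasertib. The 3 treated ratios, from 1.11 to 1.42, lay above the 3 control ratios, from 0.531 to 0.658.

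The peptide pump rose unevenly in ML1. TAP1 was at 38.4, 42.2 and 42.8 CPM with diluent and at 412, 352 and 395 CPM with prexasertib, a log2 difference of 3.23 ± 0.12 (adjusted p = 2.6e-12). TAP2, its partner, was at 210, 185 and 197 CPM with diluent and at 783, 609 and 658 CPM with prexasertib, a log2 difference of 1.79 ± 0.14 (adjusted p = 1.7e-08). For both chains the spread within a group was small beside the distance between the groups. The ratio of TAP1 to TAP2 per kilobase was 0.177 ± 0.0202 with diluent and 0.480 ± 0.0317 with prexasertib, so TAP2 remained the higher of the pair on this scale. A readthrough gene model, not analysed here, covers 80.5% of the exon bases of TAP2, and reads from it cannot be told apart from TAP2 there. TAP1 shares 15.4% of its exon bases with the antisense gene PSMB8-AS1, which rose from 13.9 to 34.1 CPM in ML1 (log2 difference 1.29 ± 0.19, adjusted p = 2e-05).

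The immunoproteasome subunits changed least. PSMB8 was at 141, 153 and 147 CPM in ML1 with diluent and at 209, 245 and 264 CPM with prexasertib, and PSMB9 at 56.4, 70.1 and 67.8 CPM and then at 139, 148 and 166 CPM. The groups did not overlap for either gene. The log2 differences were 0.70 ± 0.11 for PSMB8 (adjusted p = 6.2e-05) and 1.22 ± 0.17 for PSMB9 (adjusted p = 1.3e-05). PSMB9 and TAP1, the neighbours that point away from each other, differed in size of change: 2.33-fold against 9.40-fold. That difference between genes was not tested.

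**Figure D1:**
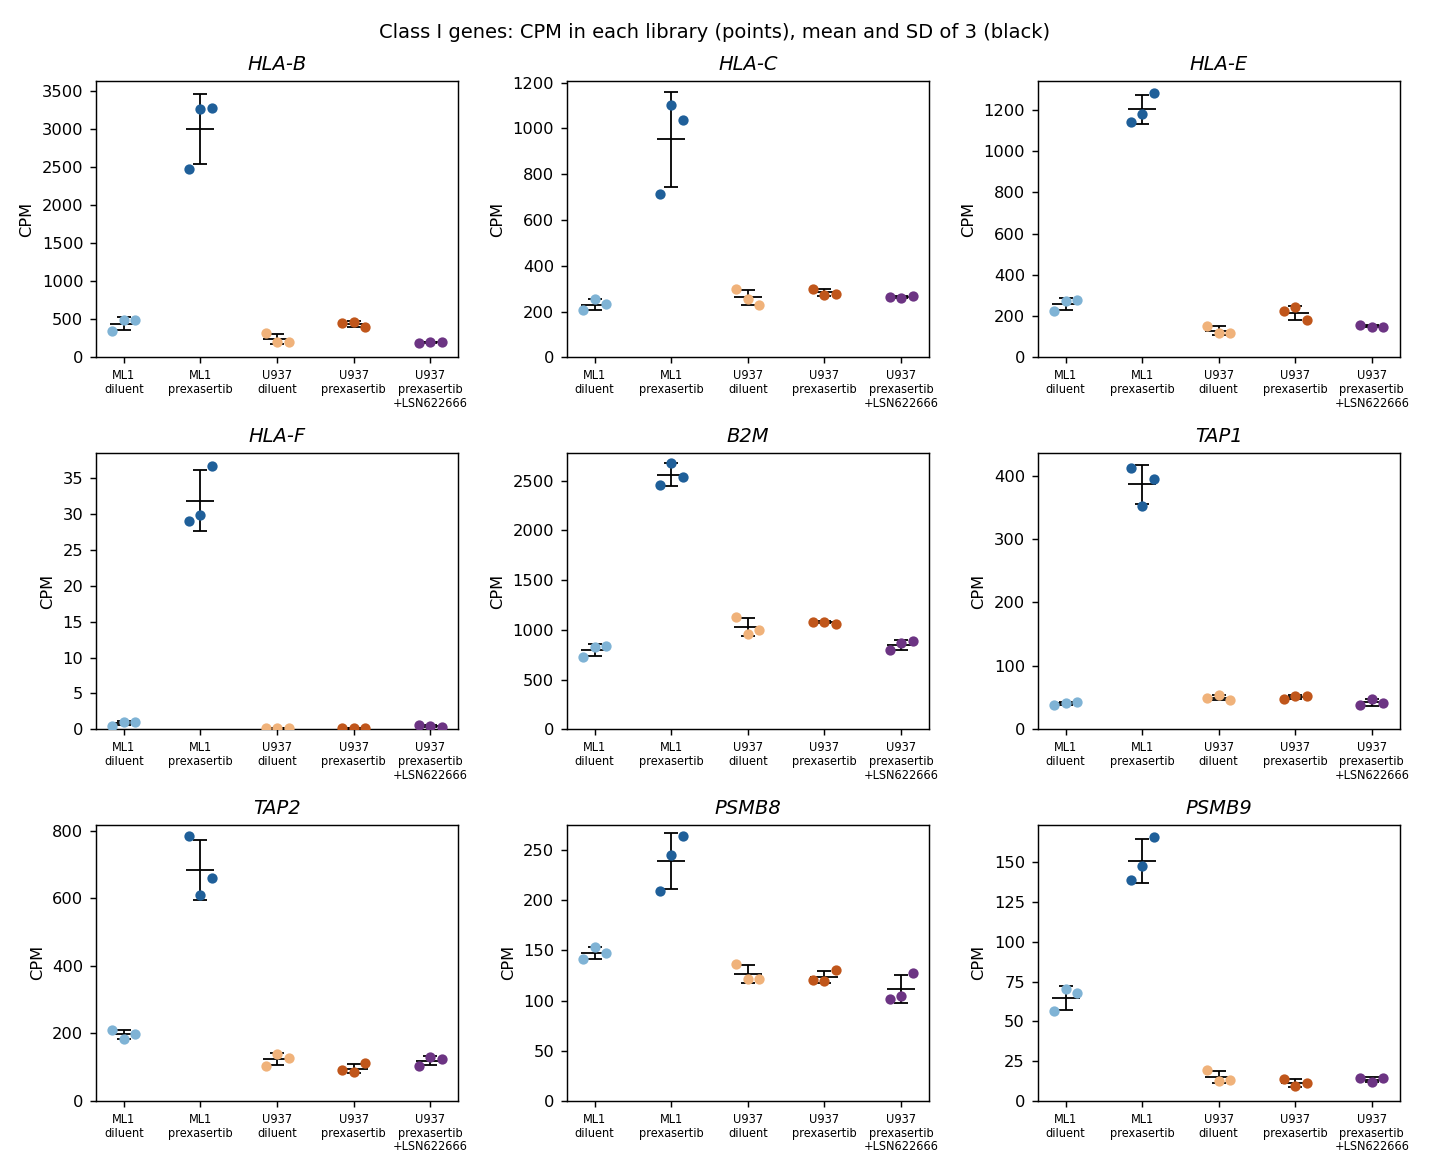
Level of each of the 9 class I genes in CPM (vertical axes, each panel on its own scale from 0) in the 15 libraries of the 5 groups. Points are libraries, and bars give the mean and SD of 3. In every panel the 3 libraries of ML1 with prexasertib are the highest, from 209 to 264 CPM for PSMB8 and from 2475 to 3274 CPM for HLA-B.

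In U937, 2 of the 9 genes rose with prexasertib, HLA-B by 1.80-fold and HLA-E by 1.66-fold, and none fell. Higher calls took in 18.3% of all genes tested and lower calls 12.8%, so 2 of 9 is near the background for this comparison. The median log2 difference of the 9 was 0.03, against 0 over all genes tested. The libraries of the groups were apart, with prexasertib above, for HLA-B and HLA-E, and were so for 24% of all genes.

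HLA-B in U937 was at 315, 209 and 207 CPM with diluent and at 458, 465 and 398 CPM with prexasertib. Diluent replicate 1 stood above the other 2 controls but below all treated libraries. The log2 difference was 0.85 ± 0.17, with a 95% interval of 0.49 to 1.22 (adjusted p = 0.0018). HLA-E was at 155, 117 and 118 CPM with diluent and at 226, 243 and 180 CPM with prexasertib, with diluent replicate 1 again the highest control. Its log2 difference was 0.74 ± 0.14, with an interval of 0.44 to 1.03 (adjusted p = 0.0011). Both calls held without prexasertib replicate 2, at 0.78 for HLA-B (adjusted p = 0.012) and 0.62 for HLA-E (adjusted p = 0.0099).

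The other 7 genes of U937 did not pass the test. HLA-C was at 299, 256 and 230 CPM with diluent and at 301, 275 and 277 CPM with prexasertib (log2 difference 0.12, interval -0.19 to 0.43, adjusted p = 0.56). B2M was at 1130.5, 961 and 1001 CPM and then at 1081, 1081 and 1062 CPM (0.06, interval -0.17 to 0.29, adjusted p = 0.71). TAP1 was at 48.7, 53.9 and 46.4 CPM and then at 47.3, 53.0 and 51.8 CPM (0.03, interval -0.20 to 0.26, adjusted p = 0.86). In each of these genes the groups overlapped, and the intervals leave out changes of the size seen in ML1. TAP2 was at 105, 139 and 127 CPM with diluent and at 90.4, 85.6 and 113 CPM with prexasertib, overlapping through the third treated library (log2 difference -0.36 ± 0.14, adjusted p = 0.059). It is the gene nearest to a lower call, and it passed with an adjusted p of 0.036 by DESeq2 and of 0.04 after counts were thinned to the total of the smallest library. PSMB8 had a log2 difference of -0.03 (interval -0.27 to 0.20, adjusted p = 0.84) and PSMB9 one of -0.39 (interval -0.76 to -0.03, adjusted p = 0.094). HLA-F held 40 counts over the 3 diluent libraries and 36 over the 3 with prexasertib, so at this depth its difference of -0.36 has an interval from -1.12 to 0.39 (adjusted p = 0.45).

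The response to prexasertib differed between the lines for all 9 genes. The test of the difference itself, U937 minus ML1, was negative and passed for 9 of 9, against 12.3% of all genes tested in that direction. The median was -1.91, against 0.03 over all genes. HLA-F differed by -5.61 ± 0.44 on the log2 scale (adjusted p = 6.9e-08) and TAP1 by -3.20 ± 0.16 (adjusted p = 5.8e-10). PSMB8 had the smallest difference, -0.73 ± 0.16 (adjusted p = 0.0025). HLA-B, which rose in both lines, still differed by -1.91 ± 0.25 (adjusted p = 1.7e-05), and HLA-E by -1.48 ± 0.20 (adjusted p = 2.3e-05). The count remained 9 of 9 without replicate 2 of U937 with prexasertib.

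**Figure D2:**
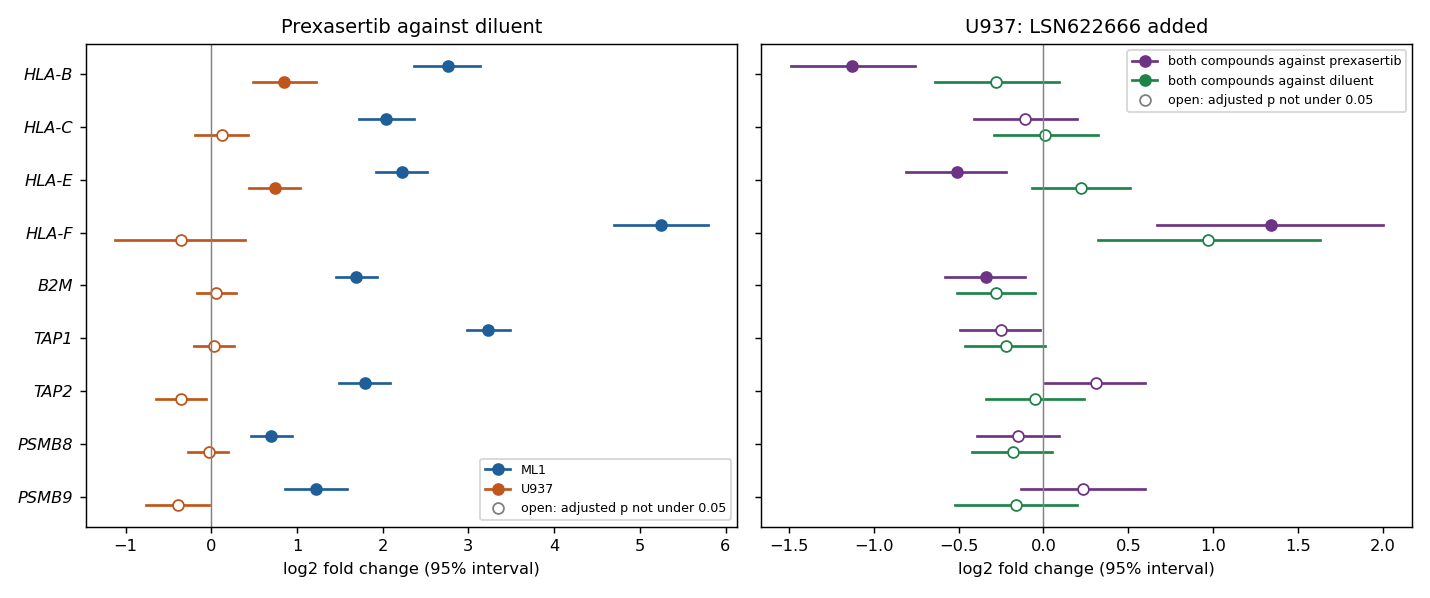
Log2 difference in expression of the 9 genes (horizontal axes) with its 95% interval, from the fit over all 15 libraries. Filled symbols have an adjusted p under 0.05 and open symbols do not. In the left panel all ML1 values lie above 0 and 7 of the 9 U937 values are open, and in the right panel the values for both compounds against diluent are all open.

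When LSN622666 was added to prexasertib in U937, HLA-B, HLA-E and B2M were lower than with prexasertib alone and HLA-F was higher. Lower calls took in 17.1% of all genes tested and higher calls 11.9%, against 3 and 1 of the 9 members, and the median of the 9 was -0.15, against 0.01 over all genes. HLA-B was at 458, 465 and 398 CPM with prexasertib and at 194, 205 and 204 CPM with both compounds. The libraries with both lay closely together, below every library with prexasertib alone, and the log2 difference was -1.13 ± 0.17 (adjusted p = 2e-04). It was -1.08 without prexasertib replicate 2 (adjusted p = 0.0012). HLA-E was at 226, 243 and 180 CPM with prexasertib and at 158, 150 and 146 CPM with both, again without overlap (log2 difference -0.51 ± 0.14, adjusted p = 0.01).

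B2M was at 1081, 1081 and 1062 CPM with prexasertib and at 795, 863 and 887 CPM with both compounds, a log2 difference of -0.34 ± 0.11 (adjusted p = 0.029). HLA-F was at 0.132, 0.243 and 0.166 CPM with prexasertib and at 0.538, 0.479 and 0.365 CPM with both, 36 against 101 counts (log2 difference 1.34 ± 0.31, adjusted p = 0.0046). The groups of both genes were apart, as they were in the higher direction for 18.8% of all genes, HLA-F being at a level far below that of any other member. The call of HLA-E ended without prexasertib replicate 2 (-0.42, adjusted p = 0.064). That of B2M ended without prexasertib replicate 1 or 2 and without any 1 of the libraries with both compounds (adjusted p = 0.054 to 0.11), so its place is close to the threshold. The call of HLA-F ended when only these groups were fitted (1.35, adjusted p = 0.057).

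HLA-C was at 301, 275 and 277 CPM with prexasertib and at 264, 262 and 267 CPM with both compounds. The groups did not overlap, which held in the lower direction for 4 of the 9 members and 23.4% of all genes, but the difference of -0.11 ± 0.15 did not pass (adjusted p = 0.62). TAP1 (-0.25, adjusted p = 0.094), TAP2 (0.31, adjusted p = 0.11), PSMB8 (-0.15, adjusted p = 0.34) and PSMB9 (0.23, adjusted p = 0.34) did not pass either. The replicate numbers pair these groups, and TAP2 passed with the replicate block in a fit to only them (0.32, adjusted p = 0.013), but not with the block in the fit to all libraries (adjusted p = 0.092). It was at 90.4, 85.6 and 113 CPM with prexasertib and at 104, 130 and 124 CPM with both compounds, higher in 3 of 3 pairs.

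Against U937 with diluent, 0 of the 9 members passed with both compounds in the main edgeR fit, where 6.88% of all genes were higher and 4.11% lower. At an unadjusted p under 0.05 there were 2, HLA-F (log2 difference 0.97, interval 0.32 to 1.63, adjusted p = 0.052) and B2M (-0.28, interval -0.51 to -0.05, adjusted p = 0.11). DESeq2 called both, HLA-F as higher and B2M as lower, and edgeR with a replicate block also called HLA-F. HLA-B was at 315, 209 and 207 CPM with diluent and at 194, 205 and 204 CPM with both, all treated libraries just below the controls, a pattern seen in 2 of the 9 members and 17.9% of all genes (-0.28, interval -0.64 to 0.09, adjusted p = 0.30). HLA-E was at 155, 117 and 118 CPM and then at 158, 150 and 146 CPM, overlapping (0.22, interval -0.07 to 0.51, adjusted p = 0.31). This comparison and the one above share the libraries with both compounds, and it shares its controls with the prexasertib comparison.

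With diluent alone, the lines already differed in 7 of the 9 genes, against 32% of all genes tested called higher in U937 and 29.4% called lower. PSMB9 was the furthest apart, at 56.4, 70.1 and 67.8 CPM in ML1 and 19.3, 12.8 and 13.0 CPM in U937 (log2 difference U937 minus ML1 -2.10 ± 0.18, adjusted p = 1.2e-08). HLA-F (-1.84), HLA-E (-0.99), HLA-B (-0.87) and TAP2 (-0.68) were also lower in U937, with adjusted p from 7.6e-06 to 0.00043. B2M was higher in U937 (0.37 ± 0.11, adjusted p = 0.0072), as was TAP1 (0.27 ± 0.11, adjusted p = 0.042). The call of TAP1 ended under several settings, among them no filter on low counts (adjusted p = 0.068). HLA-C (0.18, adjusted p = 0.30) and PSMB8 (-0.22, adjusted p = 0.10) did not pass.

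Over the 5 groups, ML1 with prexasertib had the highest level of all 9 genes, apart from the next group in each. The share of all genes with this pattern over 5 groups was not counted. Against ML1 with diluent alone, 30% of all genes lay above without overlap. Which group came next varied by gene. For HLA-B it was ML1 with diluent at 444 ± 80.9 CPM, whose libraries overlapped those of U937 with prexasertib at 440.0 ± 36.8, followed by U937 with diluent at 244 ± 61.8 and with both compounds at 201 ± 5.97. For TAP1 the other 4 groups, from 41.1 ± 2.40 CPM in ML1 with diluent to 50.7 ± 3.03 in U937 with prexasertib, overlapped from neighbour to neighbour. For TAP2, PSMB8 and PSMB9 ML1 with diluent was second and apart from the U937 groups, which overlapped among themselves.

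Per kilobase of transcript, the order of the genes within a group can be compared. In ML1 with diluent it ran from B2M at 466 CPM per kilobase through HLA-B at 287, HLA-C at 150.4, PSMB8 at 131 and HLA-E at 99.2 to TAP1 at 13.9 and HLA-F at 0.51. With prexasertib HLA-B was first at 1943 and B2M second at 1502, with HLA-C at 619 and HLA-E at 462. In U937 B2M stayed first in all 3 groups, at 605, 630.2 and 498 CPM per kilobase. HLA-B moved ahead of HLA-C with prexasertib alone, 284 against 185, and was behind it with diluent (158 against 170.4) and with both compounds (130.1 against 172). The ratio of HLA-B to HLA-C in U937 was 0.917 ± 0.120 with diluent, 1.54 ± 0.129 with prexasertib and 0.757 ± 0.0238 with both, and in ML1 it went from 1.90 ± 0.191 to 3.17 ± 0.248. These levels rest on reference transcripts. Of the stretches of 50 bases in each transcript, 6.8% for HLA-C, 5.1% for HLA-E, 2.5% for HLA-B and 1.7% for HLA-F also occur in other genes, where reads cannot be assigned to 1 gene. In the annotation 24.0% of the exon bases of HLA-B also lie under a gene model on the other strand, not analysed here. Without strand, reads of those bases cannot be told apart. The HLA alleles of the lines, which affect how many reads align, were not examined.

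Immune proteasome subunits take the place of constitutive ones, PSMB8 that of PSMB5, PSMB9 that of PSMB6 and PSMB10 that of PSMB7. In ML1 the ratio of PSMB9 to PSMB6, both in CPM per kilobase, was 0.904 ± 0.139 with diluent and 2.01 ± 0.244 with prexasertib, and that of PSMB8 to PSMB5 was 2.47 ± 0.123 and then 3.66 ± 0.387. The ratio of PSMB10 to PSMB7 was 3.16 ± 0.286 and then 2.88 ± 0.259, overlapping. The treated libraries thus lay above the controls for the first 2 ratios and overlapped them for the third, and the ratios themselves were not tested. In U937 the ratio of PSMB9 to PSMB6 was 0.166 ± 0.0440 with diluent, 0.155 ± 0.0511 with prexasertib and 0.179 ± 0.0376 with both compounds, all far below either ML1 group.

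**Figure D3:**
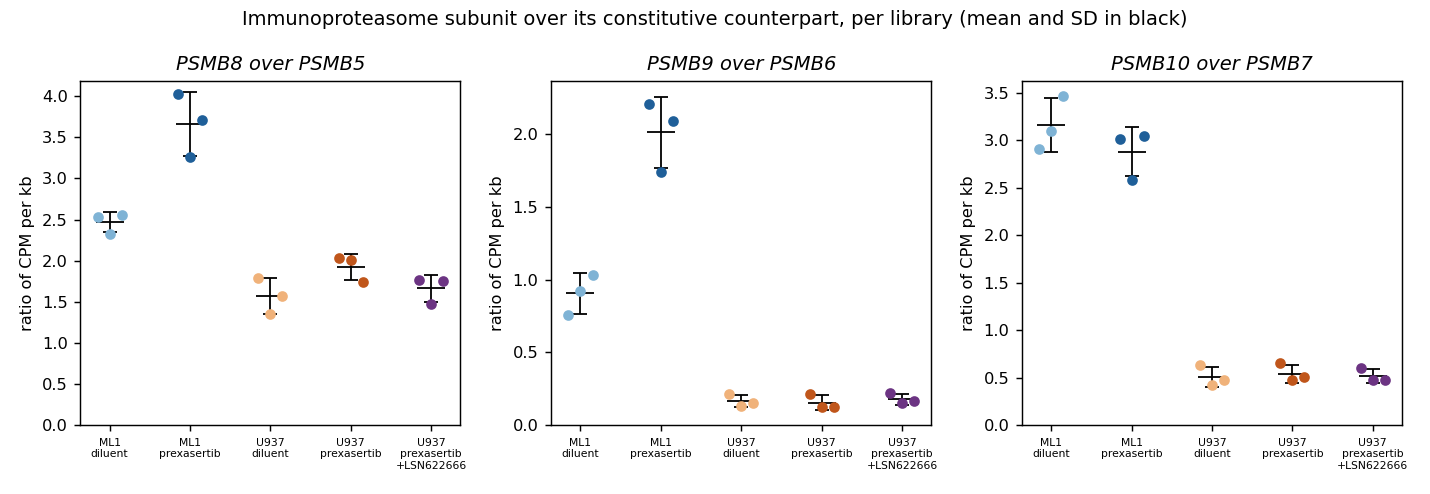
Ratio of each immune proteasome subunit to the constitutive subunit it replaces, from CPM per kilobase of transcript, in the 15 libraries (vertical axes from 0, groups on the horizontal axes). In ML1 the ratio of PSMB9 to PSMB6 has a mean of 0.904 with diluent and 2.01 with prexasertib, whereas that of PSMB10 to PSMB7 has means of 3.16 and 2.88.

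Of the rest of the peptide loading and trimming machinery, 5 of 10 genes rose and 2 fell in ML1, and 1 rose and 2 fell in U937. In U937 4 fell without diluent replicate 1 or prexasertib replicate 3. Over all genes tested, 25.3% were called higher and 23.5% lower in ML1, and 18.3% and 12.8% in U937. With LSN622666 added, 11.9% were higher and 17.1% lower, and 12.3% were lower in the difference between lines. The counts of this list and of those below are to be read beside these shares. TAPBP, the tapasin that bridges TAP to the heavy chain, rose in ML1 from 235 to 535 CPM (log2 difference 1.19 ± 0.10, adjusted p = 3e-08) and was at 120 and 134 CPM in U937 (adjusted p = 0.24). PDIA3, the disulfide isomerase of the loading complex, rose in ML1 from 289 to 601 CPM. TAPBPL, a tapasin relative that edits peptides, rose in both lines, from 46.6 to 75.8 CPM in ML1 and from 5.53 to 9.16 CPM in U937 (0.73 ± 0.18, adjusted p = 0.0058). The cytosolic peptidases moved the other way. THOP1 fell in ML1 from 148 to 76.0 CPM (-0.96, adjusted p = 4.8e-06), and TPP2 fell by 0.41 on the log2 scale in each line (adjusted p = 0.0038 in ML1 and 0.0091 in U937). CANX, a chaperone of new heavy chains, fell in U937 by 0.31 (adjusted p = 0.044). It no longer passed when diluent replicate 2, prexasertib replicate 1 or prexasertib replicate 2 was dropped.

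Of the 4 partners of the immunoproteasome, PSME2 and POMP rose in ML1 and PSME1 fell in U937. PSME2, a subunit of the PA28 activator, rose from 183 to 284 CPM (log2 difference 0.64, adjusted p = 0.00015). PSME1, the other subunit, had a difference of 0.27 in ML1 (adjusted p = 0.094) and fell by 0.49 in U937 (adjusted p = 0.011). POMP, an assembly factor, rose by 0.36 in ML1 (adjusted p = 0.028), and this call ended without diluent replicate 1 or 3 and without prexasertib replicate 2 or 3. PSMB10 was at 207 and 213 CPM in ML1 (0.04, adjusted p = 0.83). Of 14 genes of the constitutive core, 2 rose in ML1, PSMA1 (0.47, adjusted p = 0.0022) and PSMB4 (0.35, adjusted p = 0.032), and 1 fell in U937, PSMB2 (-0.40, adjusted p = 0.026). The call of PSMB4 ended without the same 4 single ML1 libraries as that of POMP, and the call of PSMB2 without diluent replicate 2 or prexasertib replicate 1 or 2. By contrast 10 core genes were lower in U937 without prexasertib replicate 3.

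Of 15 regulators of class I genes, 9 rose and 2 fell in ML1. NLRC5, the class I transactivator, was at 59.6, 49.7 and 52.7 CPM with diluent and at 282, 160 and 182 CPM with prexasertib. Replicate 1 was the highest of the treated libraries and all were above the controls (log2 difference 1.95 ± 0.18, adjusted p = 7.2e-08). In U937 NLRC5 was at 39.6, 41.2 and 44.0 CPM with diluent and at 47.0, 41.9 and 40.8 CPM with prexasertib, overlapping (0.06 ± 0.17, adjusted p = 0.83). The lines differed in this response by -1.89 (adjusted p = 1.6e-05).

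STAT2 and IRF9, which carry interferon signals to the nucleus, rose in ML1 by 2.76 and 4.13 on the log2 scale (adjusted p = 1.6e-09 and 3.4e-08). IRF9 in U937 rose from 9.72 ± 0.657 to 34.5 ± 21.2 CPM (1.83, adjusted p = 0.00047, and 1.18 without prexasertib replicate 2). IRF1, another activator of class I genes, rose in both lines. It went from 155 ± 20.1 to 262 ± 15.2 CPM in ML1 (0.76 ± 0.17, adjusted p = 0.0014) and from 15.9 ± 3.22 to 29.5 ± 6.12 CPM in U937 (0.89 ± 0.18, adjusted p = 0.0015), and the difference between these responses did not pass (0.13, interval -0.38 to 0.65, adjusted p = 0.75). With both compounds it was at 17.3, 16.2 and 11.9 CPM in U937, below prexasertib alone at 31.4, 34.4 and 22.6 CPM (-0.96 ± 0.18, adjusted p = 0.00076). Like HLA-B and HLA-E, IRF1 thus rose with prexasertib in both lines and fell in U937 when LSN622666 was added. Lower calls on that addition took in 17.1% of all genes, and that of HLA-E ended without prexasertib replicate 2 (adjusted p = 0.064). IRF1 was not alone in this among the regulators. In U937 NFKB1 had a log2 difference of 0.55 with prexasertib (adjusted p = 0.019). With LSN622666 added it had one of -0.57 (adjusted p = 0.017). Both calls of NFKB1 ended without prexasertib replicate 2 (adjusted p = 0.14 and 0.1), and each also ended without other single libraries. Whether IRF1 or NFKB1 acted on the class I genes was not tested.

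In U937, 7 of the 15 regulators rose with prexasertib and 1 fell, against 2 and 1 without prexasertib replicate 2, and 3 rose without diluent replicate 3. RFXAP, part of the RFX complex that binds the conserved promoter box of class I and class II genes, fell in both lines. Its log2 difference was -1.25 in ML1 (adjusted p = 2.5e-06), and the U937 value was -0.63 (adjusted p = 0.0054). NFYB, a subunit of the CCAAT-binding factor NF-Y, fell in ML1 by 0.51 (adjusted p = 0.0054). In U937 NFYB rose with prexasertib by 0.55 (adjusted p = 0.0078) and NFYC, another subunit, by 0.54 (adjusted p = 0.0091). Both of these calls ended without prexasertib replicate 2 (adjusted p = 0.069 and 0.086), and that of NFYC also ended without diluent replicate 3 (adjusted p = 0.055). With LSN622666 added, 7 regulators were lower than with prexasertib alone and none higher, or 4 without prexasertib replicate 2 or without replicate 1 or 3 of both compounds. NFYA fell by 0.59 (adjusted p = 0.003), NFYC by 0.71 (adjusted p = 0.0016) and NFYB by 1.07 (adjusted p = 5.4e-05).

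Of the interferons, receptors and JAK kinases, 8 of the 9 genes tested rose in ML1, against 2 that rose and 1 that fell in U937. IFNB1, the interferon beta gene, held 6 counts over the ML1 diluent libraries and 1189, 512 and 833 counts in the 3 with prexasertib (log2 difference 8.90, adjusted p = 4.3e-07). In U937 it held 12 counts with diluent, 18, 57 and 25 counts with prexasertib and 36 counts in all with both compounds. The U937 difference of 2.79 ± 0.87 (adjusted p = 0.024) did not pass without prexasertib replicate 2 (adjusted p = 0.12) or without diluent replicate 1 or 3 (0.084 and 0.075). The lines differed by -6.10 (adjusted p = 0.0087). This no longer passed when U937 diluent replicate 2 was dropped (-4.22, adjusted p = 0.31), and the value was -10.08 without ML1 diluent replicate 2. IFNL1, a type III interferon, was at 0 counts with diluent in both lines and held 771 counts in ML1 and 53 in U937 with prexasertib, at least 296-fold and 16.8-fold higher when the controls are set to 3 counts over the group. IFNG held 4 counts in U937 with prexasertib and 0 elsewhere. The interferon gamma receptor genes IFNGR1 and IFNGR2 rose in ML1 by 0.91 and 0.95.

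All 20 genes of the type I interferon response list rose in ML1, with a median log2 difference of 6.83. In U937 11 rose, with a median of 1.5, against 8 and a median of 0.51 without prexasertib replicate 2, and with LSN622666 added 10 were lower than with prexasertib alone, or 6 without that library. It was 6 and 4 lower without replicates 1 and 3 of both compounds. The lines differed in 18 of the 20. IFI27, a mitochondrial interferon-induced protein, went from 0.543 to 731 CPM in ML1 (10.37, adjusted p = 1e-14) and had a difference of 0.11 in U937. IFIT2, which blocks translation of foreign RNA, rose in both lines, by 7.71 in ML1 and by 4.90 in U937 (3.01 without prexasertib replicate 2). The RNA sensor IFIH1 rose by 5.25 and 2.23. In the interferon gamma response list 7 of 10 genes rose in ML1 and 5 in U937. The chemokine CXCL10 went from 0.329 to 352 CPM in ML1 and from 1.23 to 18.7 CPM in U937, and the guanylate-binding protein GBP5 from 0.304 to 101 CPM and from 20.7 to 59.1 CPM.

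The summed level of the 9 class I genes was set beside the interferon response in each library. With prexasertib it was 2338, 2331 and 2223 CPM in replicates 1 to 3, while the type I response sum was 589, 2443 and 598 CPM. In ML1 the class I sum was 1955, 2292 and 2293 CPM with diluent and 8364, 9617 and 9653 CPM with prexasertib, while the type I sum was 409 to 464 CPM and then 14580.8 to 19716.1 CPM. In U937 replicate 2, a type I sum above that of the other libraries of its line thus went with a class I sum inside their range. B2M, the largest part of that sum, was at 1081 CPM in replicates 1 and 2. Of single members, HLA-B, HLA-E, HLA-F and TAP1 were highest in replicate 2 of the 3 prexasertib libraries, HLA-B at 465 CPM against 458 and 398, and HLA-E at 243 CPM against 226 and 180. Whether interferon acted on the class I genes was not tested.

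**Figure D4:**
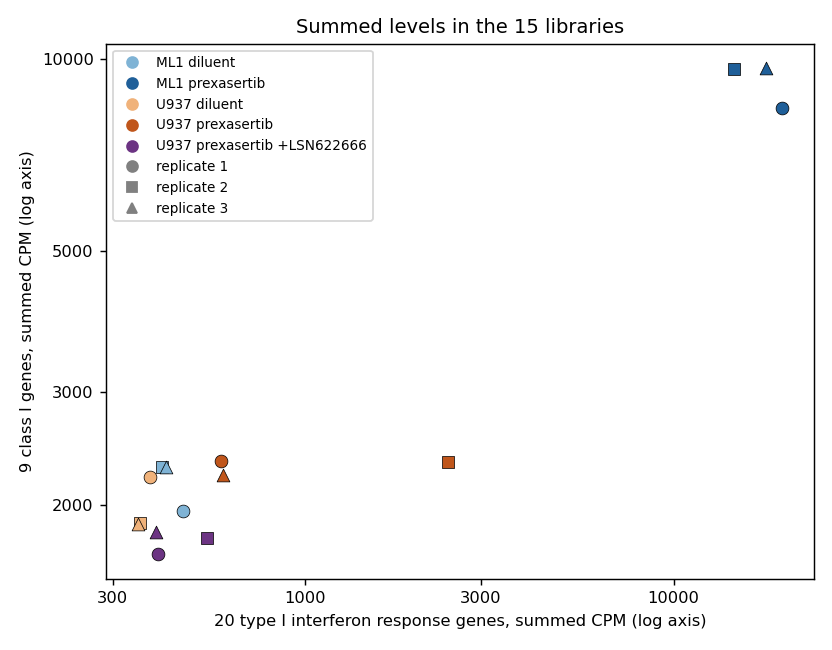
Summed level of the 9 class I genes (vertical axis, CPM, log scale) against the summed level of 20 type I interferon response genes (horizontal axis, CPM, log scale), 1 point per library. The 3 ML1 libraries with prexasertib lie at the upper right, and replicate 2 of U937 with prexasertib lies at 2443 CPM on the horizontal axis with a class I sum of 2331 CPM, level with its group.

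Other antigen-presenting families were read in the same libraries. Of the class I-like molecules, 5 of the 7 tested rose in ML1, among them PROCR, the endothelial protein C receptor (2.40), FCGRT, the neonatal Fc receptor chain (1.07), and MR1, which presents microbial metabolites (0.96). In U937 2 rose and 1 fell. HFE, a regulator of iron uptake, held 0 counts with diluent and 225 with prexasertib, at least 71.2-fold higher, and it fell when LSN622666 was added (-2.57, adjusted p = 0.001). In ML1 HFE rose by 1.32 (adjusted p = 0.0091). MR1 rose by 0.59 in U937 and PROCR fell by 0.65, and both calls ended without prexasertib replicate 2. That of MR1 also ended without prexasertib replicate 1 and without diluent replicate 2 or 3.

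The NKG2D ligands, stress-induced relatives of class I chains, rose in 4 of 8 genes in each line, and in 2 of U937 without prexasertib replicate 2, diluent replicate 2 or diluent replicate 3. MICB went from 42.0 to 57.8 CPM in ML1 (0.46, adjusted p = 0.003) and from 33.8 to 47.9 CPM in U937 (0.50, adjusted p = 0.0041), and was at 31.0 CPM with both compounds (-0.63 against prexasertib alone, adjusted p = 0.00079). MICA rose in U937 from 10.1 to 17.4 CPM (0.79, adjusted p = 0.0021). ULBP1 rose in ML1 from 2.76 to 15.2 CPM (2.46, adjusted p = 1.4e-07), and its U937 call (0.60, adjusted p = 0.048) ended when replicate 1 or 2 with prexasertib, or 2 or 3 with diluent, was left out.

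Of the class II pathway, 10 of 11 tested genes rose in ML1, with a median log2 difference of 3.16. HLA-DRA, the alpha chain shared by all DR molecules, went from 4.71 ± 1.39 to 57.8 ± 17.2 CPM (3.61), and CD74, the invariant chain, from 117 ± 15.2 to 780.1 ± 201 CPM (2.73). CIITA, the class II transactivator, had a difference of 0.76 (adjusted p = 0.087). In U937 2 of the 11 rose, CTSS and HLA-DMB, and neither passed without prexasertib replicate 2, while HLA-DMB also did not pass without diluent replicate 2 or 3 and 4 genes rose without prexasertib replicate 3. HLA-DRA there held 26 counts with diluent and 59 with prexasertib, and CD74 was at 23.5 and 23.7 CPM. Of the 8 myeloid markers, 5 rose, 1 fell and 2 were not called in ML1, with a median log2 difference of 0.96. Over all genes tested 25.3% were higher and 23.5% lower. LYZ went from 514 ± 121 to 3627 ± 733 CPM, ITGAM rose by 2.18 and CSF1R by 2.30 on the log2 scale, while MPO was at 948 and then 508 CPM. Their part in the class I values was not tested.

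**Figure D5:**
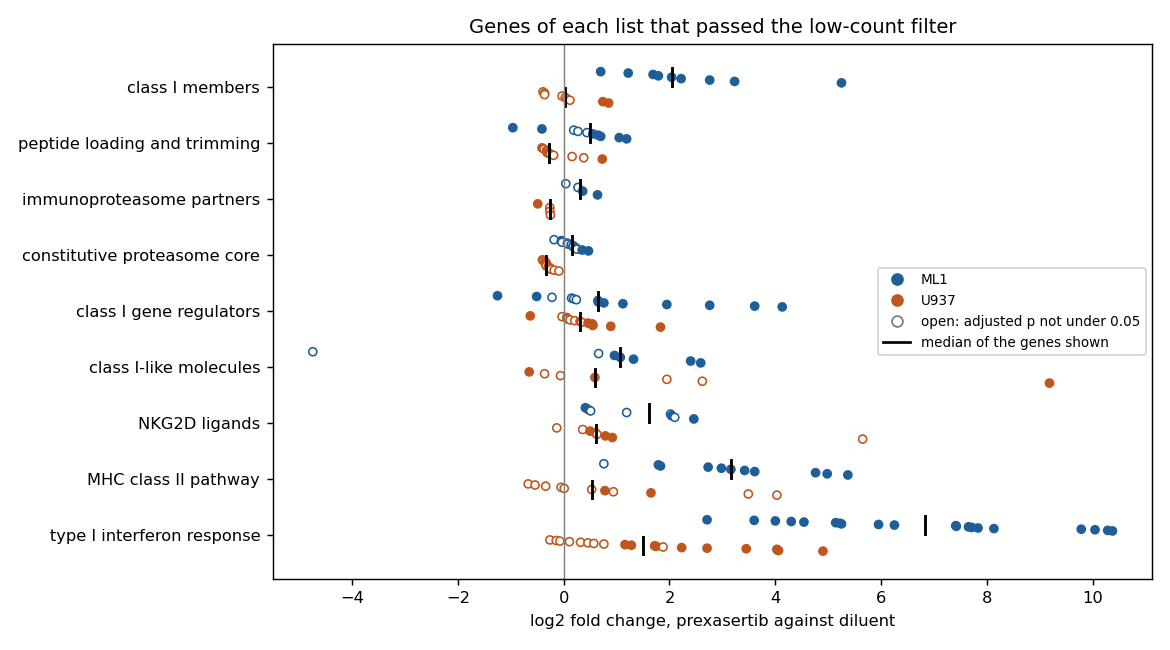
Log2 difference with prexasertib against diluent (horizontal axis) of the tested genes of 9 gene lists (vertical axis), ML1 above U937 within each list. There is 1 point per gene, with a black bar at the median. The class I members have a median of 2.04 in ML1 and 0.03 in U937, and the type I interferon list has medians of 6.83 and 1.5.

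Over the 15 libraries, Pearson's r of log2 CPM between pairs of members ran from 0.643 for B2M with PSMB9 to 0.987 for HLA-B with HLA-E, over points that share lines and treatments. Over the 9 U937 libraries alone, r was below 0 for 15 of the 36 pairs, from -0.911 for HLA-E with TAP2 and -0.879 for HLA-F with B2M to 0.859 for HLA-B with HLA-E. The high values over all libraries were thus not seen within U937 for many pairs. Among 10818 genes outside the lists with a mean of at least 5 CPM, PSAP was most like the members' mean (r = 0.992), at 437 and 2081 CPM in ML1 and at 347, 332 and 317 CPM in the 3 U937 groups. PSAP encodes the precursor of the saposins, activators of lysosomal lipid breakdown. Next came NEXN (0.99), LIF (0.989), SRC, CD68 and APOL2 (each 0.988), TREX1 (0.987) and TRIM22 (0.985). NEXN was at 1.21 CPM in ML1 with diluent, 51.0 CPM with prexasertib and 0.555 to 0.639 CPM in the U937 groups. LIF was at 0.493, 198 and 0.145 to 0.401 CPM. NEXN and LIF thus reached a mean of 5 CPM only through ML1 with prexasertib. Their high r says little about the other groups. TRIM22 went from 38.2 to 684 CPM in ML1 and was between 13.3 and 17.2 CPM in the U937 groups, so like the members it was highest in ML1 with prexasertib.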

How the data were processed

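RNA was extracted on columns, and libraries were prepared with Illumina's TruSeq v2 kit, per the labels' protocols. Strand is not kept by this kit. For each of the 15 libraries, the deposited table gives whole-number read counts by gene symbol. Reads were aligned with TopHat2 2.0.14 and Bowtie2 2.2.6 to hg38 and counted with featureCounts 1.4.6, per the submitters' processing notes. Not given in the sources used here are the annotation, the strand setting and the treatment of multiply mapped reads.

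The count table was filtered on low counts (filterByExpr), scaled by TMM and fitted with edgeR 4.0.16 (R 4.3.3), quasi-likelihood with robust estimation, in 1 model of 5 group means over all 15 libraries (10 residual degrees of freedom). The 6 comparisons were contrasts of that fit, with Benjamini-Hochberg adjustment over 17243 genes and a threshold of 0.05. Every adjusted p in the text is from edgeR's quasi-likelihood test unless DESeq2 (1.42.0) is named. CPM are counts per 1000000 TMM-scaled reads, and log2 CPM used a prior count of 2. Lengths and positions came from GENCODE v29 main transcripts. The fit was tested on simulated data first.

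The members and lists were chosen with earlier results of these data known. Named were all 9 members, up to 3 genes per list with the smallest p in each line, called genes that moved against their list, and the 8 genes most like the members; other regulators and interferon genes were named after their values were seen. Numbers pair the U937 libraries with prexasertib and with both compounds (correlations of same-numbered deviations 0.409, 0.37 and 0.384), as found in the data, not the labels. Alternatives were another scaling, filter, tool, thinning, a replicate block, a fit to the groups compared, and leaving out each library. The block in a fit to only the groups compared, and the lists other than the members without single libraries, were added after seeing the data.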

Additional observations from a re-analysis of the deposited data

Results flagged for a closer look

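The prexasertib response of each of the 9 class I genes differed between the lines by the test of the difference itself (edgeR's quasi-likelihood test, U937 minus ML1, 3 libraries in each of 4 groups), and this is why they are listed. On the log2 scale the differences were -1.91 for HLA-B, -1.92 for HLA-C, -1.48 for HLA-E, -5.61 for HLA-F, -1.63 for B2M, -3.2 for TAP1, -2.15 for TAP2, -0.73 for PSMB8 and -1.61 for PSMB9. The treated libraries of ML1 lay above its controls for all 9 genes, and those of U937 did so for HLA-B and HLA-E. Over all genes tested, 12.3% differed in the same direction. The lines also differed with diluent alone in 7 of the 9 genes, and line and any difference in culture between the lines cannot be told apart.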

How the results depend on the processing

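All 9 members stayed higher in ML1 with prexasertib, and all 9 differences between the lines stayed called, under every alternative run. Of 855 alternative values of single members, 799 kept direction and side of the threshold, 17 lost a call, 21 gained one and 18 changed sign. In U937 with prexasertib the count of lower members went from 0 to 1 (TAP2) with DESeq2's size factors, thinned counts, DESeq2 and a replicate block in a fit to only the groups compared, and was 0 to 1 when single libraries were left out (1 without diluent replicate 1 or prexasertib replicate 3, TAP2, and without prexasertib replicate 1, PSMB9). With LSN622666 added, the count of higher members went from 1 to 2 with upper-quartile scaling and with the replicate block in a fit to only these groups (TAP2, 0.32, adjusted p = 0.013), and to 0 in that fit without the block. Single libraries left out gave 1 to 2 higher (2 without prexasertib replicate 3, TAP2) and 1 to 3 lower (1 without prexasertib replicate 2). For both compounds against diluent, higher members went from 0 to 1 with upper-quartile scaling, a stricter filter, the replicate block (HLA-F, 0.96, adjusted p = 0.043), the block in a fit to only these groups (HLA-E), thinned counts and DESeq2, and lower members from 0 to 1 with DESeq2. They were 0 to 1 (1 without replicate 3 of both compounds) and 0 without single libraries. Between the lines with diluent, 2 higher members became 1 with upper-quartile scaling and without the filter, and 0 to 2 without single libraries (0 without U937 replicate 1, 1 without U937 replicate 2 or any ML1 library). The block, where numbers pair the U937 libraries with prexasertib and with both compounds, changed no other member count.

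The 18 values that changed sign were all uncalled and lay near 0. With single libraries left out, those in U937 with prexasertib ranged from -0.01 to 0.19 for HLA-C, from -0.02 to 0.1 for B2M and from -0.06 to 0.06 for TAP1. For both compounds against diluent they ranged from -0.11 to 0.1 for HLA-C, from -0.18 to 0.02 for TAP2 and from -0.29 to 0.05 for PSMB9. Thinned counts gave -0.01 for TAP1 with prexasertib and -0.03 for HLA-C with both. PSMB8 with prexasertib was 0.01 with upper-quartile scaling and 0.05 with the stricter filter, and TAP2 with both compounds was 0.06 and 0.05. Depth limits HLA-F in U937, at 36 to 101 counts per group. Upper-quartile scaling moved the median of all genes from 0.001 to 0.106 for both compounds against diluent. The cause of these shifts was not tested.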
